A study of Homo sapiens with 18 samples.

Results

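The genes examined here were 37 genes of glucose uptake, glycolysis, pyruvate use and the response to low oxygen. They were taken by symbol from a table of 37096 named genes, and all 37 were found in it. By role they comprised 4 transporters of glucose or lactate, 8 enzyme genes from hexokinase to aldolase, 3 PFKFB genes, 7 enzyme genes from triose phosphate to pyruvate, 2 lactate dehydrogenase genes, 3 pyruvate dehydrogenase kinase genes and 10 other targets of hypoxia. A gene was tested when its mean log2 value over all libraries lay at least 0.5 above the lowest value of the table. Of the members, 36 passed. CA9, a carbonic anhydrase induced by hypoxia, did not pass and had 0 to 2.79 normalised reads in every library.

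Poly-A RNA came from HEK293T, an established human embryonic kidney line of WT genotype. Cells were transfected with MethionaseNLS, a methionase, which is an enzyme that breaks down methionine, or with the empty vector pLEX. The methionase and empty-vector cells were each sampled at 24 h with Vps34IN1, at 24 h with the vehicle DMSO and at 12 h with DMSO, which gave 6 groups of 3 libraries. Vps34IN1 is an inhibitor of VPS34, the lipid kinase needed for autophagy and endosome maturation, and was used at 5 µM for 12 h. All cells had been expanded in high-glucose medium (4.5 g/L). No group received an inactive methionase, the labels do not say how long DMSO was present, and nothing states that the replicates were separate cultures. P-values therefore measure the spread between these libraries only. Fewer cells of a kind and less RNA per cell cannot be told apart in bulk RNA.

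Cells take up glucose through GLUT transporters, trap it with hexokinases and split it into trioses, which are oxidised to pyruvate. Pyruvate enters mitochondria through pyruvate dehydrogenase, which PDK enzymes switch off by phosphorylation, or is reduced to lactate by lactate dehydrogenase and exported by MCT transporters. When oxygen is low, HIF1 escapes prolyl hydroxylation, binds the core motifs ACGTG and GCGTG near its targets and raises many genes of this route, together with genes of mitophagy, lipid storage, collagen hydroxylation and blood vessel growth. MYC and the MondoA-TXNIP circuit, which senses sugar phosphates, act on the same route.

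Total reads per library ranged from 18278586 to 20825232, so all libraries had similar depth. VIM, NEFM, NEFL, INA, PAX2, KRT8 and KRT18, which HEK293-type cells express, were detected in every library, with at least 99.1 normalised reads for PAX2, the lowest of them. HBA1, DCN, PECAM1 and CDH5 had at most 5.5 normalised reads and ALB had at most 20.3. The fibroblast collagens were detected in every library, COL1A1 at 402 to 672 and COL3A1 at 24.1 to 44.7. Within a group, the members tended to be high or low in the same library. Empty-vector 12 h replicate 1 held the highest value of its group for 32 of 36 members, against 32.1% of all 17755 genes tested. Its replicate 3 held the lowest for 26, against 30.7% of all genes tested. Methionase 24 h DMSO replicate 1 was highest for 27 members and its replicate 3 lowest for 27, against 35.5% and 34.4% of all genes tested. The members are therefore not independent of each other.

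Promoters are shown first because many members are known targets of HIF1, whose DNA motif is short and well defined. RefSeq windows of the 250 bases before a start site (GRCh38.p14) were at hand for 30 of the 37 members, and 25 of these genes (83.3%) had ACGTG or GCGTG on either strand in at least 1 window. The share was 63% of 12911 tested genes and 47.4% of all 27305 genes with such windows. Split by motif, ACGTG occurred in 66.7% of member genes and 27.8% of tested genes, while GCGTG occurred in 53.3% and 51.6%. CACGTG, the palindromic E-box core, counts as ACGTG on both strands. Genes with several start sites have more windows to match, and members had 58 windows for 30 genes while tested genes had 18503 for 12911. By window the share with either motif was 56.9% for members against 53.7% for tested genes. The shares of ACGTG alone and GCGTG alone were not counted by window. The 5 windows below are printed 5′ to 3′ in the direction of transcription, with each match to either motif, on either strand, in capitals. BNIP3 and LDHA are shown for windows rich in matches, with a window of HK2 at 6 as well, and PDK1 for its pair of matches close to the start. SLC2A1 is shown because its window has none although the gene was lower with methionase in all 3 settings, and GPI because it has 1 although it passed no test.
BNIP3 (chr10:131981924-131982173, minus strand, 6 matches): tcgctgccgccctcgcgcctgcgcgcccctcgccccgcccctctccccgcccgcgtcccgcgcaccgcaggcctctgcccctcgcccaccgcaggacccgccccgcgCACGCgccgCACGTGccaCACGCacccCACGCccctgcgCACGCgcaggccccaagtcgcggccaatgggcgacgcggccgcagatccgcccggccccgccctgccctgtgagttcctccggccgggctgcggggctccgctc
LDHA (chr11:18394313-18394562, plus strand, 5 matches): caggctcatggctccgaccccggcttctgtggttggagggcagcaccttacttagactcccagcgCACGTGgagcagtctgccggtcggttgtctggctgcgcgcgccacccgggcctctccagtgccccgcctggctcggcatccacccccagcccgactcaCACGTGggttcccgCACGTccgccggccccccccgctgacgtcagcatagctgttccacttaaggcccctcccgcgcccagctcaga
PDK1 (chr2:172555840-172556089, plus strand, 2 matches): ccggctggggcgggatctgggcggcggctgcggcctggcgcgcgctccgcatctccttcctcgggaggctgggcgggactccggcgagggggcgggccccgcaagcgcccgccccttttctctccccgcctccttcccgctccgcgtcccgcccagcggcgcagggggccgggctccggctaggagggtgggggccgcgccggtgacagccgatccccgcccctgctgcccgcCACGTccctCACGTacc
SLC2A1 (chr1:42958869-42959118, minus strand, no match): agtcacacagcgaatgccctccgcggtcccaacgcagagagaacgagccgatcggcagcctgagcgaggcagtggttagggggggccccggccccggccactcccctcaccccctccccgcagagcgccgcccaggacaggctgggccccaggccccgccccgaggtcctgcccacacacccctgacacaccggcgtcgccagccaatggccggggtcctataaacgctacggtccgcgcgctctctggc
GPI (chr19:34364742-34364991, plus strand, 1 match): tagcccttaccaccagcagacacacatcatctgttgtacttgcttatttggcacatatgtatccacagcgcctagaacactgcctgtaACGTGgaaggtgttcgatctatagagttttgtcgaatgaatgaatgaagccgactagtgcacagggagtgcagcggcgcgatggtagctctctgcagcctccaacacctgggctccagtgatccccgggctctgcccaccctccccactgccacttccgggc
A match is a string of letters, not evidence of binding, and the absence of one in 250 bases says nothing about more distant sites.

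Methionase lowered many members at 24 h in DMSO. Of 36 tested, 23 fell and 1 rose, LDHB (limma, adjusted p below 0.05), where 21.1% of all genes tested fell and 18.1% rose. The median log2 difference of the members was -0.30, against 0.01 for all genes. Under Vps34IN1, methionase lowered 12 members and raised none at a background of 22.2% lower and 17.3% higher, with a median of -0.12 against 0.01, so the share lower was closer to that of all genes. At 12 h in DMSO 10 members fell and none rose, where 1.49% of all genes fell and 0.681% rose, with a median of -0.23 against -0.00. The 10 genes called at 12 h were SLC2A1, SLC2A3, SLC16A1, PFKFB3, PFKFB4, PGAM1, PDK1, BNIP3, BNIP3L and HILPDA, and all 10 were also lower at 24 h in separate libraries. SLC2A1, SLC16A1, PFKFB3, PDK1, BNIP3L and HILPDA were lower with methionase in all 3 settings. How often other genes called lower at 12 h were also lower in the other settings was not counted. Leaving out a library in turn left 4 to 9 members lower at 12 h, with 4 without methionase 12 h replicate 2 and 7 without empty-vector 12 h replicate 1. Without methionase 12 h replicate 2 the whole table gave 16 lower and 2 higher genes, in place of 264 and 121. Quantile normalization gave 95 lower and 90 higher. Leaving out libraries gave 7 to 14 members lower with methionase under the drug, with 7 without empty-vector drug replicate 1, 8 without methionase drug replicate 1 and 8 without its replicate 3. The median under the drug, -0.12, was -0.20 without methionase drug replicate 2 and -0.07 without replicate 3.

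More members were called lower with the drug in empty-vector cells than in methionase cells, and the same held for all genes tested. Against DMSO, Vps34IN1 lowered 4 of 36 members in methionase cells, namely SLC16A1, PDK3, HILPDA and ADM, and raised none, at a background of 4.98% lower and 2.95% higher. In empty-vector cells it lowered 16 and raised 2, LDHB and PFKM, at a background of 19.9% lower and 20.2% higher. Scaling the libraries to equal medians changed this background to 605 genes lower and 899 higher in methionase cells, in place of 885 and 523, and to 2831 and 4544 in empty-vector cells, in place of 3527 and 3595. The median difference of the members was -0.03 in methionase cells and -0.19 in empty-vector cells. It ranged from -0.08 without methionase drug replicate 2 to 0.00 without methionase 24 h DMSO replicate 1 in methionase cells, and was -0.29 without empty-vector drug replicate 1 in empty-vector cells. The drug and methionase comparisons at 24 h share libraries, so their values are set side by side without an overlap being counted. HK1, GPI, ALDOA and TPI1 were called in none of the 9 comparisons. The share of all genes tested that were called in none was not counted. The share of reads on the 2 mitochondrial rRNA genes moved with the same groups. It was 1.89% to 2.47% with methionase and drug, 0.985% to 1.35% with empty vector and drug, 0.938% to 2.01% with methionase in DMSO at 24 h, 0.48% to 0.657% with empty vector in DMSO at 24 h, 0.324% to 0.383% with methionase at 12 h and 0.206% to 0.292% with empty vector at 12 h. Its part in the members' differences was not tested. Reads of the 37 members made up 1.35% to 1.81% of a library.

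**Figure D1:**
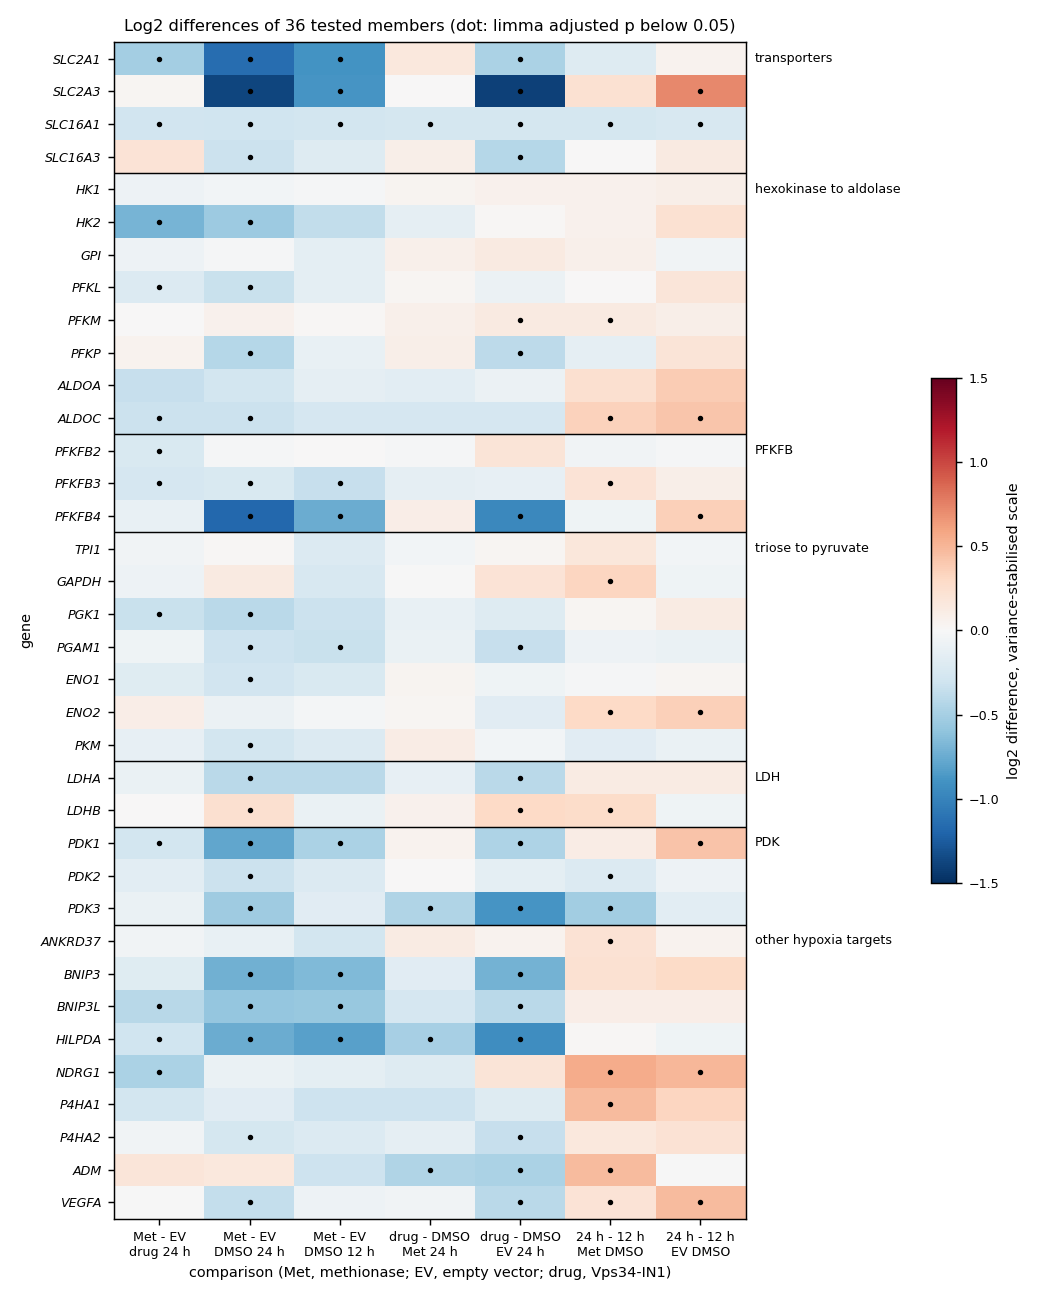
Log2 differences of the 36 tested members (rows, by role) in 7 comparisons (columns), on the variance-stabilised scale. Blue is lower and red is higher in the first-named group, and a dot marks a limma adjusted p below 0.05. Methionase columns in DMSO are mostly blue, with SLC2A3 at -1.38 and PFKFB4 at -1.18 at 24 h, while the column of the drug in methionase cells has 4 dots.

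With methionase in DMSO the transporters had the largest median difference of the role groups, -0.73 at 24 h and -0.58 at 12 h, while under drug their median was -0.13. SLC2A1, which encodes GLUT1, the main basal glucose transporter (chromosome 1, 42925353 to 42958868, hg38), had 591, 700 and 619 normalised reads with methionase and drug, against 1018, 921 and 878 with empty vector and drug. In DMSO at 24 h it had 596, 557 and 529 with methionase, against 1227, 1411 and 1377 with empty vector, and at 12 h 616, 659 and 684 with methionase, against 1575, 1168 and 1153 with empty vector. Every methionase library lay below every empty-vector library of the same setting, and the 9 methionase libraries stayed between 529 and 700. The log2 differences with methionase were -0.51 ± 0.09 under drug, -1.14 ± 0.09 in DMSO at 24 h and -0.90 ± 0.09 at 12 h (SE; limma, adjusted p = 0.000104, 1.51e-09 and 1.18e-05). In empty-vector cells the drug lowered SLC2A1 by 29.8%, a log2 difference of -0.48 ± 0.09 (adjusted p = 0.000189), whereas in methionase cells the difference was 0.16 ± 0.09 (adjusted p = 0.302). SLC2A1 calls with methionase held under each alternative processing and each library left out.

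SLC2A3, encoding GLUT3, a high-affinity glucose transporter, gave a different pattern. It had 184, 279 and 288 normalised reads with methionase and drug, against 259, 226 and 236 with empty vector and drug, so these 6 libraries overlapped. At 24 h in DMSO it had 297, 229 and 213 with methionase, against 750, 826 and 718 with empty vector. At 12 h it had 232, 175 and 190 with methionase, against 634, 393 and 320 with empty vector. The empty-vector DMSO libraries stood above all the others. The log2 difference with methionase was 0.03 ± 0.15 under drug (adjusted p = 0.895), -1.38 ± 0.15 at 24 h in DMSO (adjusted p = 1.31e-07) and -0.89 ± 0.15 at 12 h (adjusted p = 0.00312). The drug alone gave -1.40 ± 0.15 in empty-vector cells (adjusted p = 1.06e-07) and 0.01 ± 0.15 in methionase cells (adjusted p = 0.979). Relative to empty vector in DMSO at 24 h, mean SLC2A3 was 32.7% with methionase and drug together, 32.2% with methionase alone and 31.4% with drug alone. The 12 h call was lost without methionase 12 h replicate 2, at a log2 difference of -0.83 (adjusted p = 0.0529). Reads of SLC2A3 may be shared with its near-identical neighbour SLC2A14, depending on how the authors counted them.

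SLC16A1 encodes MCT1, a carrier of lactate and pyruvate in either direction, and SLC16A3 encodes MCT4, the lactate exporter raised by hypoxia. SLC16A1 had 3637, 3700 and 3967 normalised reads with methionase and drug, against 4934, 4568 and 4422 with empty vector and drug, and 4875, 4534 and 4184 with methionase in DMSO at 24 h, against 5556, 5625 and 5545 with empty vector. At 12 h it had 5389, 5344 and 5586 with methionase, against 6461, 6606 and 6753 with empty vector. The steps were small and even, with no overlap in any of the 7 pairs of groups compared. Methionase lowered SLC16A1 by 18.8% under drug, 18.7% in DMSO at 24 h and 17.7% at 12 h, and the drug lowered it by 16.8% in methionase cells and by 16.8% in empty-vector cells. Its methionase difference under drug minus that in DMSO was 0.00 on the log2 scale, with a 95% interval of -0.17 to 0.18. The 12 h call was the least firm, with an adjusted p of 0.0178 that became 0.0609 after quantile normalization and 0.0703 to 0.108 without methionase 12 h replicate 1 or 2 or empty-vector 12 h replicate 2 or 3. The drug call in methionase cells (adjusted p = 0.0087) became 0.0525 without methionase 24 h DMSO replicate 1 and 0.159 with only those groups in the fit. SLC16A3 was near the detection limit, with 12.8, 9.9 and 7.84 normalised reads with methionase and drug, 3.07, 7.15 and 5.18 with empty vector and drug, 4.28, 8.51 and 11.2 with methionase in DMSO at 24 h, and 14.6, 18.6 and 22.2 with empty vector in DMSO. On the compressed scale of low values, its differences were 0.20 ± 0.09 with methionase under drug (adjusted p = 0.0706), -0.32 ± 0.09 in DMSO (adjusted p = 0.00572) and -0.43 ± 0.09 with drug in empty-vector cells (adjusted p = 0.000351). Per kilobase of exon, SLC16A1 had 1190 and SLC16A3 had 3.56 normalised reads with empty vector in DMSO at 24 h.

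**Figure D2:**
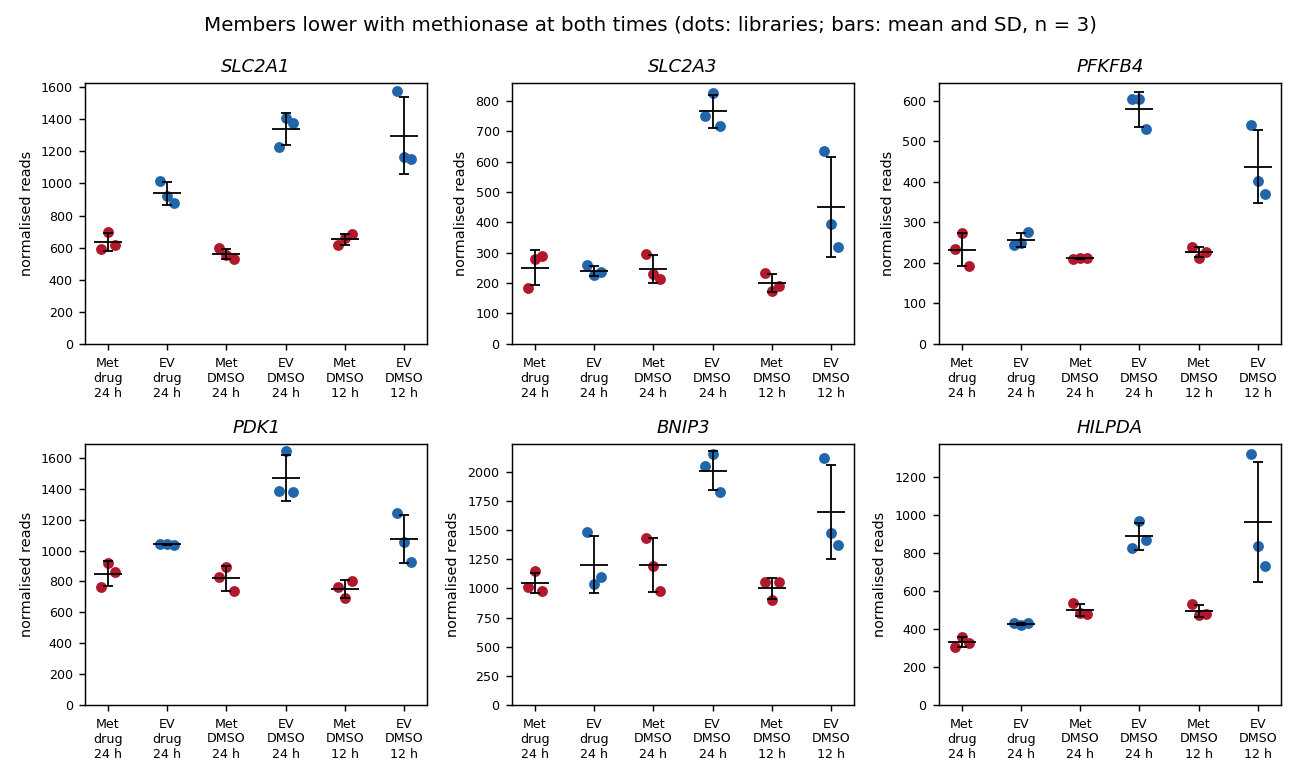
Normalised reads (linear axis from 0) of 6 members in every library, by group. Red is methionase, blue is empty vector, and bars give the mean and SD of 3 libraries. SLC2A3 and PFKFB4 are high in the DMSO empty-vector groups and low in the other 4, and empty-vector 12 h replicate 1 is the top point of its group in all 6 panels.

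Among the enzyme genes from hexokinase to aldolase, the hexokinases differed from each other. HK2, the inducible hexokinase bound to mitochondria, had 1766, 2061 and 2163 normalised reads with methionase and drug, against 3739, 3207 and 2982 with empty vector and drug. In DMSO at 24 h it had 2504, 2225 and 1930 with methionase, against 3152, 3663 and 2960 with empty vector, and at 12 h 2040, 2130 and 2170, against 3419, 2618 and 2321. Methionase libraries lay below empty-vector libraries in each setting. HK2 fell with methionase by 0.70 ± 0.11 on the log2 scale under drug (limma, adjusted p = 2.66e-05) and by 0.54 ± 0.11 in DMSO at 24 h (adjusted p = 0.000479), while the 12 h difference was -0.37 ± 0.11 (adjusted p = 0.082). The drug gave no such difference, with 0.02 ± 0.11 in empty-vector cells (adjusted p = 0.9). HK1, the constitutive hexokinase, ranged from 3693 to 4592 in all libraries, and its methionase difference at 24 h in DMSO had a 95% interval of -0.19 to 0.11. Per kilobase of exon, HK1 was the higher of the pair in every library, with a ratio of HK1 to HK2 of 2.66 ± 0.26 with methionase against 1.7 ± 0.17 with empty vector under drug, and 2.33 ± 0.091 against 1.64 ± 0.11 in DMSO at 24 h (SD, n = 3).

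Phosphofructokinase, the committed step, is encoded by PFKL, PFKM and PFKP. PFKP, the platelet-type subunit, had 2004, 2206 and 1541 normalised reads with methionase and drug, 1952, 1708 and 1826 with empty vector and drug, 1849, 1759 and 1708 with methionase in DMSO at 24 h, and 2477, 2559 and 2223 with empty vector in DMSO at 24 h. As with SLC2A3, only the empty-vector DMSO group stood above the others at 24 h. Its differences were 0.05 ± 0.09 with methionase under drug (adjusted p = 0.682), -0.43 ± 0.09 with methionase in DMSO (adjusted p = 0.000595) and -0.39 ± 0.09 with drug in empty-vector cells (adjusted p = 0.00152). PFKL, the liver-type subunit, had 3823, 3185 and 3635 with methionase against 4589, 4581 and 4244 with empty vector in DMSO at 24 h, and fell by 0.33 ± 0.08 (adjusted p = 0.00142). Its smaller drop of 0.20 under drug (adjusted p = 0.0375) was lost in 9 of 14 alternatives, with an adjusted p of 0.281 without methionase drug replicate 3. PFKM, the muscle-type subunit, moved the other way, with 3574, 3518 and 3505 under drug against 3260, 3203 and 3129 in DMSO in empty-vector cells, a rise of 0.14 ± 0.05 (adjusted p = 0.0376) that 9 of 14 alternatives did not keep, at adjusted p of 0.0578 to 0.515. ALDOC, an aldolase, fell with methionase by 0.32 ± 0.12 in DMSO at 24 h (adjusted p = 0.036) and by 0.32 ± 0.12 under drug (adjusted p = 0.0379), and these calls were lost in 7 and 9 of 14 alternatives. The ALDOC groups overlapped under drug. ALDOA and GPI, the aldolase and isomerase of most tissues, passed in no comparison, although ALDOA fell with methionase under drug by 0.56 when methionase drug replicate 2 was left out (adjusted p = 0.00373).

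The PFKFB enzymes set the level of fructose-2,6-bisphosphate, the strongest activator of phosphofructokinase, and PFKFB3 and PFKFB4 are HIF1 targets. PFKFB4 (chromosome 3, 48517684 to 48563136, hg38) had 233, 273 and 192 normalised reads with methionase and drug, against 243, 250 and 276 with empty vector and drug. At 24 h in DMSO it had 209, 213 and 211 with methionase, against 605, 603 and 529 with empty vector, and at 12 h 239, 213 and 227, against 539, 402 and 370. The drug groups overlapped, and the DMSO groups were apart at both times. The log2 difference with methionase was -0.11 ± 0.10 under drug (adjusted p = 0.381), -1.18 ± 0.10 in DMSO at 24 h (adjusted p = 3.61e-09) and -0.75 ± 0.10 at 12 h (adjusted p = 0.000445), and the drug gave -0.97 ± 0.10 in empty-vector cells (adjusted p = 6.42e-08). PFKFB4 with methionase and drug together was 40.1% of empty vector in DMSO at 24 h, with methionase alone 36.4% and with drug alone 44.3%. PFKFB3, the form with the highest kinase activity, had smaller differences. It fell with methionase by 0.25 ± 0.07 under drug (adjusted p = 0.00675), 0.23 ± 0.07 in DMSO at 24 h (adjusted p = 0.0108) and 0.34 ± 0.07 at 12 h (adjusted p = 0.0146). The PFKFB3 call at 12 h was lost without methionase 12 h replicate 1 or 2 or empty-vector 12 h replicate 1 (adjusted p = 0.0728, 0.101 and 0.0738), that at 24 h without empty-vector 24 h DMSO replicate 2 (adjusted p = 0.0731) and that under drug after quantile normalization (adjusted p = 0.155). PFKFB2 was called with methionase only under drug, where the groups overlapped, and fell by 0.23 ± 0.08 (adjusted p = 0.0206), and lost that call in 5 of 14 alternatives.

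The enzyme genes from triose phosphate to pyruvate were mostly abundant among the members, apart from ENO2, and their differences with methionase in DMSO at 24 h lay between -0.41 and 0.14 on the log2 scale. With empty vector in DMSO at 24 h, GAPDH had 33100, ENO1 19800, TPI1 10700, PKM 7500, PGK1 3140, PGAM1 3120 and ENO2 237 normalised reads per kilobase of exon. With methionase at 24 h in DMSO, PGK1, PGAM1, ENO1 and PKM fell and none of the 7 rose. PGK1, phosphoglycerate kinase, had 12960, 12739 and 9833 normalised reads with methionase against 15370, 17293 and 14323 with empty vector, a difference of -0.41 ± 0.12 (adjusted p = 0.00692) that became -0.28 without methionase 24 h DMSO replicate 3 (adjusted p = 0.0658). PGAM1, phosphoglycerate mutase, had 4505, 5061 and 4256 with methionase against 5676, 5729 and 5711 with empty vector (-0.31 ± 0.08, adjusted p = 0.00427), and in empty-vector cells 5226, 4137 and 4113 with drug (-0.35 ± 0.08 against DMSO, adjusted p = 0.00145). These groups did not overlap. PKM, pyruvate kinase, had 22846, 20147 and 18600 with methionase against 24911, 25275 and 24310 with empty vector (-0.28 ± 0.08, adjusted p = 0.00504). ENO1, the ubiquitous enolase, fell by 0.29 ± 0.09 (adjusted p = 0.0155), a call lost in 4 of 14 alternatives, among them without methionase 24 h DMSO replicate 2 or 3 or empty-vector 24 h DMSO replicate 2 (adjusted p = 0.0652, 0.0836 and 0.0648). At 12 h PGAM1 was the only one of the 7 called (-0.33 ± 0.08, adjusted p = 0.0303), and 9 of 14 alternatives lost it. Under drug PGK1 was the only one called, with overlapping groups (-0.33 ± 0.12, adjusted p = 0.027), and it was lost without methionase drug replicate 1 or 3 or empty-vector drug replicate 1 (adjusted p = 0.0699, 0.148 and 0.176). GAPDH, often used as a reference gene, had 88854, 78904 and 75429 with methionase against 71847, 76504 and 72401 with empty vector in DMSO at 24 h, a difference of 0.14 ± 0.09 (adjusted p = 0.26). GAPDH, PGAM1, ENO1, LDHA and others of the set have processed pseudogenes, so reads may be shared.

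The lactate dehydrogenase genes moved apart. LDHA, which favours lactate formation, had 20787, 27133 and 22602 normalised reads with methionase and drug against 26647, 24230 and 24467 with empty vector and drug, and 29755, 27493 and 19923 with methionase against 32983, 34332 and 32969 with empty vector in DMSO at 24 h. LDHB, which favours lactate oxidation, had 41170, 44638 and 44286 with methionase and drug against 43411, 41654 and 43666 with empty vector and drug, and 44744, 41823 and 37673 with methionase against 34153, 34966 and 35714 with empty vector in DMSO at 24 h. In DMSO at 24 h all methionase libraries were below the empty-vector ones for LDHA and above them for LDHB, and under drug the groups overlapped for both. LDHA fell with methionase by 0.40 ± 0.12 in DMSO at 24 h (limma, adjusted p = 0.0139) and LDHB rose by 0.24 ± 0.07 (adjusted p = 0.0106). In empty-vector cells the drug lowered LDHA by 0.41 ± 0.12 (adjusted p = 0.0106) and raised LDHB by 0.30 ± 0.07 (adjusted p = 0.00222). Without methionase 24 h DMSO replicate 3, LDHA was at -0.22 (adjusted p = 0.138), and without its replicate 1 LDHB was at 0.18 (adjusted p = 0.0561). After quantile normalization both LDHB differences were 0.01 (adjusted p = 0.885 and 0.89). On the deposited values, per kilobase of exon LDHB exceeded LDHA by 3.49 ± 0.35 times with methionase and 3.2 ± 0.15 times with empty vector under drug, by 3.07 ± 0.41 against 1.96 ± 0.063 times in DMSO at 24 h, and by 2.73 ± 0.045 against 2.24 ± 0.34 times at 12 h (SD, n = 3).

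PDK1, PDK2 and PDK3 restrain pyruvate dehydrogenase, and PDK1 is a classical HIF1 target. PDK1 (chromosome 2, 172555373 to 172724312, hg38) had 764, 923 and 862 normalised reads with methionase and drug, against 1040, 1044 and 1037 with empty vector and drug. In DMSO at 24 h it had 832, 894 and 736 with methionase, against 1385, 1645 and 1381 with empty vector, and at 12 h 762, 692 and 804, against 1243, 1057 and 929. Methionase libraries were lower in each setting, without overlap. PDK1 fell with methionase by 0.27 ± 0.09 under drug (adjusted p = 0.0188), 0.78 ± 0.09 in DMSO at 24 h (adjusted p = 3.29e-07) and 0.47 ± 0.09 at 12 h (adjusted p = 0.00947). The drug lowered it by 0.46 ± 0.09 in empty-vector cells (adjusted p = 0.000226), and in methionase cells the difference was 0.05 ± 0.09 (adjusted p = 0.814). The 12 h call was lost without methionase 12 h replicate 2 (adjusted p = 0.0902), and the call under drug without methionase drug replicate 1 (adjusted p = 0.108) and after quantile normalization (adjusted p = 0.222).

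PDK3, the kinase most resistant to inhibition by pyruvate, was lowest with the drug. It had 568, 497 and 439 normalised reads with methionase and drug, 579, 517 and 529 with empty vector and drug, 725, 673 and 732 with methionase in DMSO at 24 h, and 1089, 1108 and 996 with empty vector in DMSO at 24 h. At 12 h it had 1102, 1092 and 972 with methionase, against 1272, 1123 and 1194 with empty vector. The levels thus formed 3 steps at 24 h, with both drug groups lowest and empty vector in DMSO highest. The drug gave -0.45 ± 0.08 in methionase cells (adjusted p = 0.000643) and -0.88 ± 0.08 in empty-vector cells (adjusted p = 4.68e-09), and methionase gave -0.10 ± 0.08 under drug (adjusted p = 0.312) and -0.53 ± 0.08 in DMSO at 24 h (adjusted p = 6.51e-06). PDK2 fell with methionase in DMSO at 24 h by 0.32 ± 0.08 (adjusted p = 0.0018), its only call for a treatment. Of the summed PDK1 to PDK3 level per kilobase, PDK3 made up 47.9% ± 3 with methionase and 46.2% ± 1.7 with empty vector under drug, against 57.1% ± 2.1 and 58.4% ± 0.94 in DMSO at 24 h (SD, n = 3).

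**Figure D3:**
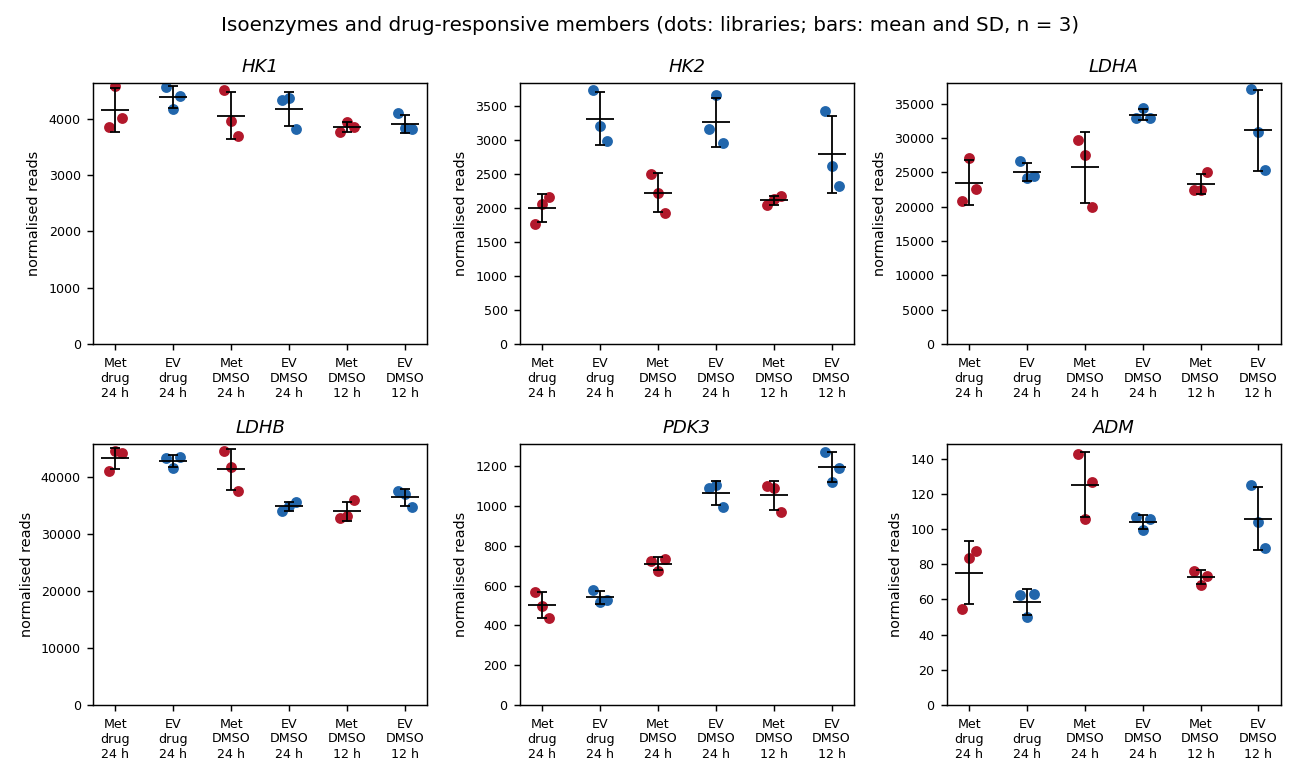
Normalised reads (linear axis from 0) of the hexokinase and lactate dehydrogenase pairs, PDK3 and ADM in every library, by group. Red is methionase, blue is empty vector, and bars give the mean and SD of 3 libraries. HK2 is lower with methionase in each setting while HK1 stays between 3693 and 4592, and PDK3 is lowest in the 2 drug groups.

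Of the other hypoxia targets, 9 were tested. HILPDA, which inhibits lipolysis and favours lipid droplets (chromosome 7, 128455878 to 128458418, hg38), had 307, 359 and 327 normalised reads with methionase and drug, against 430, 420 and 429 with empty vector and drug. In DMSO at 24 h it had 536, 483 and 479 with methionase, against 824, 967 and 871 with empty vector, and at 12 h 529, 472 and 478, against 1324, 838 and 732. Both treatments went with lower values, and the group with both was the lowest. HILPDA fell with methionase by 0.74 ± 0.12 in DMSO at 24 h (adjusted p = 3.14e-05) and 0.82 ± 0.12 at 12 h (adjusted p = 0.00106), and with drug by 0.50 ± 0.12 in methionase cells (adjusted p = 0.0112) and 0.93 ± 0.12 in empty-vector cells (adjusted p = 1.46e-06). Its fall of 0.30 ± 0.12 with methionase under drug (adjusted p = 0.0461) was lost in 10 of 14 alternatives, at adjusted p of 0.0622 to 0.139, including the omission of methionase drug replicate 1 or 3 or of any empty-vector drug library.

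BNIP3 and BNIP3L encode receptors of mitophagy, the autophagic removal of mitochondria. BNIP3 (chromosome 10, 131967684 to 131981923, hg38) had 1008, 1147 and 982 normalised reads with methionase and drug, against 1484, 1038 and 1094 with empty vector and drug. In DMSO at 24 h it had 1433, 1195 and 975 with methionase, against 2052, 2153 and 1826 with empty vector, and at 12 h 1053, 899 and 1052, against 2120, 1480 and 1370. The groups overlapped under drug and were apart in DMSO. BNIP3 fell with methionase by 0.72 ± 0.13 in DMSO at 24 h (limma, adjusted p = 0.00016) and 0.66 ± 0.13 at 12 h (adjusted p = 0.0122), and with drug by 0.71 ± 0.13 in empty-vector cells (adjusted p = 0.000164). The BNIP3 call at 12 h was lost without methionase 12 h replicate 2 (adjusted p = 0.101) and without empty-vector 12 h replicate 1 (-0.48, adjusted p = 0.0613). BNIP3L fell with methionase in each setting, with 795, 859 and 810 against 1271, 1063 and 1052 under drug, 1080, 1027 and 880 against 1463, 1618 and 1484 in DMSO at 24 h, and 947, 869 and 953 against 1713, 1331 and 1228 at 12 h. Its groups did not overlap, and its log2 differences were -0.42 ± 0.09, -0.58 ± 0.09 and -0.57 ± 0.09 in that order (adjusted p = 0.000943, 2.83e-05 and 0.00261), calls that held in each alternative run.

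The remaining targets were less uniform. ADM, the vasodilator peptide adrenomedullin, had 54.5, 83.6 and 87.4 normalised reads with methionase and drug, 62.5, 50.1 and 63.2 with empty vector and drug, 143, 106 and 127 with methionase in DMSO at 24 h, and 107, 99.5 and 106 with empty vector in DMSO at 24 h. At 24 h it was lower in both drug groups than in the DMSO groups. Per kilobase of exon, mean ADM with methionase was 26.7 in DMSO at 12 h, 27.7 with drug and 46.2 in DMSO at 24 h. With empty vector it was 39, 21.6 and 38.4 in that order, so the methionase 12 h group without drug was low as well. The drug lowered ADM by 0.45 ± 0.10 in methionase cells (adjusted p = 0.00623) and by 0.47 ± 0.10 in empty-vector cells (adjusted p = 0.000604), and methionase made no called difference in DMSO at 24 h (0.16 ± 0.10, adjusted p = 0.203). The ADM call in methionase cells was lost with only the groups compared in the fit (adjusted p = 0.0681). VEGFA, the main growth factor of blood vessels, had 1330, 1342 and 1392 with methionase and drug, 1189, 1441 and 1481 with empty vector and drug, 1345, 1435 and 1449 with methionase in DMSO at 24 h, and 1895, 1755 and 1845 with empty vector in DMSO at 24 h. Of these 24 h groups only the last stood apart, with differences of -0.36 ± 0.08 for methionase in DMSO (adjusted p = 0.000778) and -0.40 ± 0.08 for the drug in empty-vector cells (adjusted p = 0.000234). At 12 h the methionase difference of VEGFA was -0.08 (limma, adjusted p = 0.626). Per kilobase of exon it averaged 321 with methionase and 343 with empty vector at 12 h, against 486 with empty vector in DMSO at 24 h. NDRG1, a stress-induced gene of differentiation, had 3079, 3750 and 3026 with methionase against 5404, 4258 and 4206 with empty vector under drug, and fell by 0.48 ± 0.12 (adjusted p = 0.00278), while in DMSO at 24 h the difference was -0.10 ± 0.12 (adjusted p = 0.554). The test of whether these NDRG1 differences were unequal was not called. Of the collagen prolyl hydroxylase genes P4HA1 and P4HA2, P4HA1 was called in no comparison of methionase with empty vector or of drug with DMSO. P4HA2 fell with methionase in DMSO at 24 h (-0.26 ± 0.09, adjusted p = 0.0316, lost in 7 of 14 alternatives) and with drug in empty-vector cells (-0.35 ± 0.09, adjusted p = 0.00422). ANKRD37, with 2.89 to 18.4 normalised reads, was too low for firm statements about treatment.

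Whether the methionase difference was the same with and without the drug was tested as an interaction, the log2 difference under Vps34IN1 minus that in DMSO. It was called positive for 9 members and negative for none, where 9.92% of all genes tested were positive and 11.9% negative. The 9 were SLC2A3 (1.41 ± 0.21, adjusted p = 4.4e-05), PFKFB4 (1.07 ± 0.14, adjusted p = 1.03e-05), SLC2A1 (0.63 ± 0.13, adjusted p = 0.000961), BNIP3 (0.54 ± 0.19, adjusted p = 0.0437), SLC16A3 (0.52 ± 0.12, adjusted p = 0.00386), PDK1 (0.51 ± 0.13, adjusted p = 0.00538), PFKP (0.48 ± 0.13, adjusted p = 0.00881), PDK3 (0.43 ± 0.11, adjusted p = 0.00533) and VEGFA (0.35 ± 0.11, adjusted p = 0.0257). A positive call places the difference under drug above that in DMSO by definition. In DMSO the methionase differences of the 9 were all negative, and under drug they were nearer to 0 or above it. The members did not share 1 pattern. SLC2A3, PFKFB4, BNIP3, SLC16A3, PFKP, PDK3 and VEGFA had no called methionase difference under drug, whereas SLC2A1 and PDK1 remained lower with methionase. Without methionase drug replicate 3, PFKP was called higher with methionase under drug (0.20, limma adjusted p = 0.0492). With equal library medians SLC16A3 was called higher there (0.23, adjusted p = 0.036). HK2 and BNIP3L did not pass the test of the difference, with 95% intervals of -0.49 to 0.16 and -0.11 to 0.43. BNIP3 lost its interaction call in 11 of 20 alternatives (adjusted p = 0.053 to 0.131) and VEGFA in 4 (adjusted p = 0.0592 to 0.0905).

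**Figure D4:**
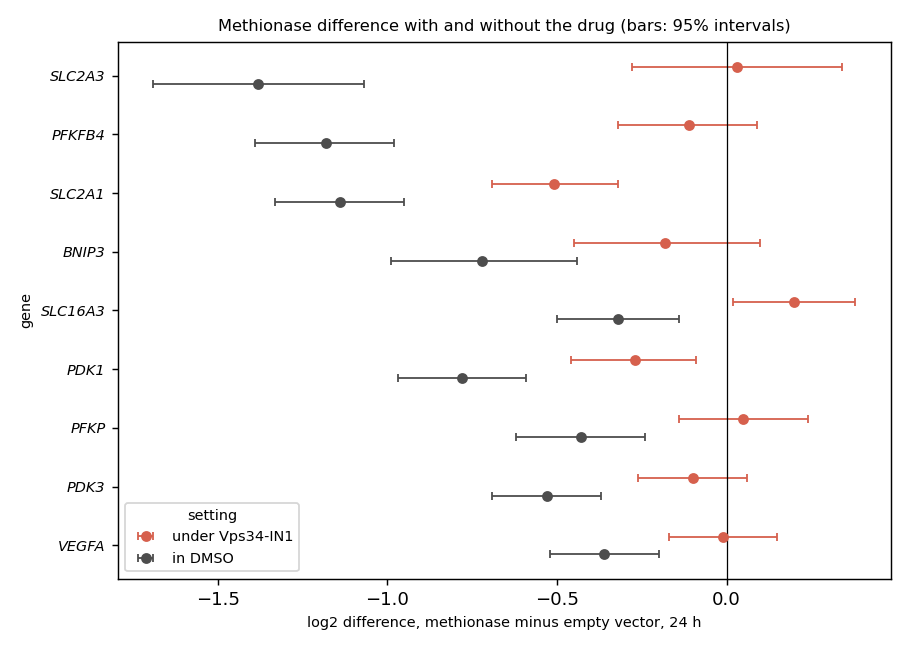
Log2 differences of methionase minus empty vector at 24 h (horizontal axis) for the 9 members with a called interaction, under Vps34-IN1 (red) and in DMSO (grey). Bars are 95% intervals from limma. Every grey point lies left of its red point, as a positive interaction requires. The red interval of SLC2A1 (-0.51 ± 0.09 SE) stays below 0 while that of SLC2A3 (0.03 ± 0.15 SE) spans it.

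Between the times, more members were higher than lower at 24 h. In methionase cells in DMSO, 11 members were higher and 3 lower at 24 h than at 12 h, at a background of 18.4% higher and 21.3% lower, and in empty-vector cells 7 were higher and 1 lower, at a background of 4.61% and 6.88%. Equal library medians changed the empty-vector background to 640 genes higher and 1668 lower, in place of 818 and 1221. SLC16A1 was lower at 24 h in both (-0.26 ± 0.06 and -0.24 ± 0.06, adjusted p = 0.00131 and 0.0117), as were PDK2 and PDK3 in methionase cells (-0.20 ± 0.08 and -0.52 ± 0.08, adjusted p = 0.0455 and 9.58e-06). The empty-vector call of SLC16A1 was lost without 12 h replicate 3 (adjusted p = 0.0608) or 24 h replicate 1 (adjusted p = 0.0525). The PDK2 call was lost in 10 of 14 alternatives, at adjusted p of 0.0552 to 0.159, among them the omission of any methionase 12 h library or of methionase 24 h DMSO replicate 2 or 3. NDRG1 was higher at 24 h in both, by 0.56 ± 0.12 with methionase and 0.50 ± 0.12 with empty vector (adjusted p = 0.000693 and 0.00856), and SLC2A3 was higher by 0.72 ± 0.15 with empty vector (adjusted p = 0.00331). The empty-vector call of NDRG1 was lost without 12 h replicate 2 (0.44, adjusted p = 0.0542) or replicate 3 (0.40, adjusted p = 0.079). The methionase count was 7, 6, 6 and 6 without methionase 12 h replicate 1 or 2 or methionase 24 h DMSO replicate 1 or 2. Of all genes, 2642, 2683, 2972 and 2791 were higher in those runs, in place of 3275. The empty-vector count depended on the 12 h libraries, with 12 members higher without replicate 1 and 3 without replicate 2 or 3. It was 4 without replicate 1 or 2 of the 24 h group. The whole table gave 686, 409 and 300 genes higher without 12 h replicates 1, 2 and 3, in place of 818. Without 24 h replicates 1 and 2 it gave 278 and 538. The methionase difference at 24 h minus that at 12 h was called positive for LDHB (0.34 ± 0.10, adjusted p = 0.031) and ADM (0.47 ± 0.14, adjusted p = 0.0293) and negative for PFKFB4 (-0.44 ± 0.14, adjusted p = 0.0463) and PDK3 (-0.36 ± 0.11, adjusted p = 0.0294). The background was 5.33% positive and 6.33% negative, or 947 and 1124 genes, which became 1431 and 722 with equal library medians. These 4 calls were lost in 10, 9, 15 and 9 of 20 alternatives, with 0 to 3 members positive and 0 to 5 negative when libraries were left out in turn. Without empty-vector 12 h replicate 1, SLC2A1 (-0.38, adjusted p = 0.0311), SLC2A3 (-0.73, adjusted p = 0.0108) and PDK1 (-0.42, adjusted p = 0.0367) were called as well.

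Other genes of the same processes were counted as well. Of all genes tested, 22.2% fell and 17.3% rose with methionase under drug, 21.1% and 18.1% in DMSO at 24 h, and 1.49% and 0.681% at 12 h. With drug, 4.98% fell and 2.95% rose in methionase cells, and 19.9% and 20.2% in empty-vector cells. Of 39 further hypoxia targets, 36 were tested. With methionase, 15 fell and 2 rose under drug, 19 fell and 4 rose in DMSO at 24 h, and 11 fell and none rose at 12 h, and the medians of these genes were -0.12, -0.23 and -0.20. AK4, a mitochondrial adenylate kinase, fell in DMSO by 0.71 ± 0.07 at 24 h and 0.46 ± 0.07 at 12 h (adjusted p = 3.34e-08 and 0.00179), and BHLHE40, a clock repressor, by 0.80 ± 0.13 at 12 h (adjusted p = 0.00212). JMJD6, a hydroxylase of lysines, rose by 0.38 ± 0.07 at 24 h (adjusted p = 0.000197). With drug, 9 fell and 1 rose in methionase cells and 18 fell and 5 rose in empty-vector cells, where MIR210HG, the host of the hypoxia-induced miR-210, fell by 1.31 ± 0.14 (adjusted p = 1.55e-07). A further 46 genes covered glucose transport, glycolysis, the pentose phosphate route and pyruvate entry, and 35 of them were tested. With methionase, 6 fell and 3 rose under drug, 4 fell and 7 rose in DMSO at 24 h, and none were called at 12 h. MPC2, a subunit of the mitochondrial pyruvate carrier, rose at 24 h in DMSO (0.30 ± 0.06, adjusted p = 0.000428) and SLC2A10, a member of the GLUT family, fell (-0.53 ± 0.10, adjusted p = 0.000118). With drug, 1 of these 35 genes fell in methionase cells, PDK4 (-0.41 ± 0.12, adjusted p = 0.0423), and 12 rose and 7 fell in empty-vector cells. The methionase counts of this list lay near or below the shares of all genes, and its difference from the hypoxia list was not tested.

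Of 14 regulators of these pathways, 13 were tested. With methionase, 7 fell and 1 rose under drug, 8 fell and 2 rose in DMSO at 24 h, and 2 fell and 1 rose at 12 h. With drug, 5 fell and 1 rose in methionase cells, and 8 fell and 2 rose in empty-vector cells. The shares of all genes that fell and rose were 22.2% and 17.3%, 21.1% and 18.1%, and 1.49% and 0.681% for methionase in that order, and 4.98% and 2.95%, and 19.9% and 20.2%, for the drug. HIF1A, the oxygen-sensitive subunit of HIF1, had 797, 708 and 714 normalised reads with methionase and drug against 1451, 1400 and 1407 with empty vector and drug, and 959, 953 and 919 with methionase against 1320, 1301 and 1220 with empty vector in DMSO at 24 h. At 12 h it had 1458, 1429 and 1460, against 1464, 1608 and 1537. Methionase thus lowered the message by 0.87 ± 0.06 under drug and 0.41 ± 0.06 in DMSO at 24 h (adjusted p = 2.03e-10 and 5.66e-06), while at 12 h HIF1A differed by -0.08 ± 0.06 (adjusted p = 0.506). The hydroxylases that restrain HIF1, EGLN1 and HIF1AN, also fell at 24 h in DMSO, by 0.77 ± 0.07 and 0.89 ± 0.06 (adjusted p = 1.15e-08 and 1.42e-10), and EGLN1, itself a HIF1 target, fell at 12 h by 0.57 ± 0.07 (adjusted p = 0.000186). MYC was raised by the drug, with 7460, 8067 and 7078 with drug against 4866, 4330 and 4333 in DMSO in methionase cells, and 11943, 12110 and 12793 against 4167, 4267 and 4344 in empty-vector cells (0.73 ± 0.07 and 1.51 ± 0.07, adjusted p = 3.14e-07 and 7.25e-14). With methionase, MYC was lower under drug (-0.70 ± 0.07, adjusted p = 5.23e-08), did not pass in DMSO at 24 h (0.08 ± 0.07, adjusted p = 0.391) and was higher at 12 h (0.40 ± 0.07, adjusted p = 0.00519). TXNIP, which limits glucose uptake and is induced by sugar phosphates through MondoA, was lower with the drug, with log2 differences of -3.04 ± 0.21 in methionase cells and -1.90 ± 0.21 in empty-vector cells (adjusted p = 3.65e-09 and 2.32e-07). With methionase, TXNIP differed by -0.44 ± 0.21 under drug (adjusted p = 0.106), 0.70 ± 0.21 in DMSO at 24 h (adjusted p = 0.0118) and -0.68 ± 0.21 at 12 h (adjusted p = 0.0904), and in methionase cells in DMSO it was higher by 1.76 ± 0.21 at 24 h than at 12 h (adjusted p = 9.23e-07). ARRDC4, its relative under the same control, fell by 1.40 ± 0.11 and 1.06 ± 0.11 in methionase and empty-vector cells (adjusted p = 1.35e-08 and 5.58e-08). The DMSO values of HIF1A, the methionase value of MYC at 24 h in DMSO, the empty-vector value of TXNIP and its methionase values under drug and at 12 h were added after the values were seen. RNA levels of these regulators do not give protein levels or activity, which were not measured.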

How the data were processed

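The authors deposited 1 table of log2 variance-stabilised expression values for 37097 rows in 18 libraries, with values from 5.45 to 18.81. Per the labels' protocols, RNA was poly-A enriched, libraries kept strand by dUTP marking, and sequencing was on a DNBSEQ-G400. The build hg38 and the tools DESeq2, limma, featureCounts and STAR 2.7.10b are named, per the submitters' processing notes, without their roles. The annotation and the strand setting of counting are not given in the sources used here. 1 row named no gene (0 to 0.0022% of reads) and was left out.

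The transformation was inverted to normalised reads, and all values (100%) came within 0.01 of a whole read, which gave the depths. The 6 group means were fitted on the deposited log2 values with limma 3.58.1 in R 4.3.3 (variance trend, Benjamini-Hochberg adjustment over 17755 genes, called below 0.05). Fold changes on this scale understate changes of low genes. Differences are the first-named group minus the second. Levels per kilobase used the union of GENCODE 29 exons. Alternatives were no filter, a stricter filter at 1, quantile normalization, equal library medians, no variance trend, a replicate block, voom on the recovered reads, a fit of only the groups compared, and each library left out.

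All members could be named. Values in every library were given for members with the lowest adjusted p in each role class and for called members against the majority of their class. In the other lists, the 3 genes with the lowest adjusted p and the most opposed called gene per comparison could be named. Members, lists and rules were chosen with earlier results of these data known.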

Additional observations from a re-analysis of the deposited data

Results flagged for a closer look

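The methionase difference under Vps34IN1 differed from that in DMSO (interaction, limma adjusted p below 0.05) for 9 members. The interaction was 1.41 for SLC2A3, 1.07 for PFKFB4, 0.63 for SLC2A1, 0.54 for BNIP3, 0.52 for SLC16A3, 0.51 for PDK1, 0.48 for PFKP, 0.43 for PDK3 and 0.35 for VEGFA on the log2 scale.

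The methionase difference at 24 h differed from that at 12 h for 4 members, by 0.47 for ADM, 0.34 for LDHB, -0.36 for PDK3 and -0.44 for PFKFB4.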

How the results depend on the processing

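Of 324 member and comparison pairs, 103 were called. Over the alternatives, 4650 values kept their side of the threshold, 224 lost a call and 73 gained one. A further 3 changed direction with a call in at least 1 of the runs. Changes of direction without a call in either run are among the 4650 and were not counted apart. After quantile normalization, TPI1 was at -0.18 with methionase at 24 h in DMSO and at -0.22 with drug in empty-vector cells, neither called on the deposited scale, and GAPDH was at -0.09 at 24 h against 12 h in methionase cells, where it had been called higher. Quantile normalization also gave 0 members higher with methionase at 24 h, 0 higher with drug in empty-vector cells, 11 members higher and 2 lower at 24 h than at 12 h in empty-vector cells, 7 higher for time in methionase cells and 1 positive time interaction. Whole-table counts were 3302 higher with methionase at 24 h and 3299 with drug in empty-vector cells, in place of 3210 and 3595. Time in empty-vector cells gave 830 genes higher and 840 lower, in place of 818 and 1221. Time in methionase cells gave 3370 genes higher and the time interaction 978 positive, in place of 3275 and 947. Equal library medians gave 1 member higher with methionase under drug, 4 higher with drug in empty-vector cells and 0 negative time interactions. The matching whole-table counts were 3738, 4544 and 722, in place of 3079, 3595 and 1124. Without the filter there was 1 member higher with drug in empty-vector cells, 5 higher for time in methionase cells, and 0 positive and 0 negative time interactions. Over the whole table these were 3263, 3060, 667 and 764, in place of 3595, 3275, 947 and 1124. No variance trend gave 1 member higher with drug in empty-vector cells and 1 negative time interaction. All genes tested gave 3524 and 1043 there, in place of 3595 and 1124. Voom gave 4 members higher with drug in empty-vector cells, 1 negative drug interaction and 1 negative time interaction. For all genes these were 3724, 2229 and 1229, in place of 3595, 2117 and 1124. Fitting only the groups compared gave 17 members lower with methionase at 12 h, 0 higher with methionase at 24 h and 2 lower with drug in methionase cells. In that fit the whole table gave 1076 lower and 485 higher with methionase at 12 h, in place of 264 and 121, and 185 lower and 111 higher with drug in methionase cells, in place of 885 and 523. The cause of these changes was not tested.

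Leaving out each library in turn, methionase under drug gave 0 to 1 members higher and 7 to 14 lower, in DMSO at 24 h 0 to 1 higher and 18 to 23 lower, and at 12 h 0 higher and 4 to 9 lower. The whole table gave 3282 to 3889, 3125 to 3496 and 16 to 166 genes lower in these runs. Under the drug, 3 to 4 members were lower and 0 higher in methionase cells, and 16 lower and 1 to 2 higher in empty-vector cells. Of all genes, 565 to 965 and 2951 to 3265 were lower. Time in methionase cells gave 6 to 9 members higher and 2 to 4 lower, and in empty-vector cells 3 to 12 higher and 0 to 1 lower. Whole-table counts of higher genes were 2642 to 2972 and 278 to 686. The drug interaction gave 7 to 9 members positive and 0 to 1 negative, and the time interaction 0 to 3 positive and 0 to 5 negative. For all genes, positive calls were 1384 to 1999 for the drug interaction and 582 to 1154 for the time interaction.

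Replicate numbers did not pair the libraries, since 13 of 45 same-numbered pairs had r over 0.1 (range -0.308 to 0.352) and 6 of 18 libraries were closest to their own number. With a replicate block, methionase lowered 14 members under drug, 23 at 24 h in DMSO and 10 at 12 h, and raised 0, 1 and 0. The whole table gave 3884, 3703 and 228 genes lower, in place of 3937, 3745 and 264, and 3067, 3155 and 113 higher. The drug lowered 4 members and raised 0 in methionase cells and lowered 16 and raised 2 in empty-vector cells. Over all genes it lowered 862 and raised 525 in methionase cells, and lowered 3511 and raised 3565 in empty-vector cells. Time gave 10 higher and 3 lower in methionase cells and 7 higher and 1 lower in empty-vector cells. All genes gave 3255 higher and 3751 lower, and 805 higher and 1166 lower, in that order. The block left 9 positive and 0 negative drug interactions and 2 positive and 2 negative time interactions. Its whole-table counts were 1704 positive and 2065 negative for the drug, and 928 and 1081 for time. Low counts limit SLC16A3, ANKRD37 and CA9.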

Other observations

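Per kilobase of exon, the ratio of SLC2A1 to SLC2A3 was 2.58 ± 0.53 with methionase against 3.84 ± 0.18 with empty vector under drug, and 2.27 ± 0.26 against 1.72 ± 0.14 in DMSO at 24 h (SD, n = 3). At 12 h it was 3.28 ± 0.59 with methionase and 2.97 ± 0.55 with empty vector, with overlapping libraries. PFKP made up 20.4% ± 1.4 of the summed phosphofructokinase level with methionase and 18.3% ± 0.77 with empty vector under drug, against 19.8% ± 0.93 and 22.7% ± 0.71 in DMSO at 24 h. These ratios were not tested.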
